A study of Mus musculus with 18 samples.

Results

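The genes described here are 10 mouse genes of iron storage, iron transport and hepcidin, out of 35441 genes in the deposited table. They were chosen by name, with earlier results of these data known. They are the hepcidin genes Hamp and Hamp2, the iron exporter ferroportin (Slc40a1), transferrin (Trf), the transferrin receptors Tfrc and Tfr2, the divalent metal transporters Slc11a1 and Slc11a2, and the ferritin subunits Fth1 and Ftl1. All 10 passed the filter on low counts, as did 14533 genes in all.

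Gene expression was measured by poly-A RNA-seq in the livers of 18 male mice, 3 in each of 6 groups, killed at 12 or 34 weeks post-injection (3 and 8 months in the labels). WT mice and Lipa-/- mice (KO) received no treatment, and treated Lipa-/- mice (KOT) received one intravenous dose of rAAV8, a recombinant adeno-associated virus that carried human LIPA cDNA under the human α1-antitrypsin promoter, which is active in hepatocytes. Lipa encodes lysosomal acid lipase, the enzyme that breaks down cholesteryl esters and triglycerides in lysosomes. The comparison of KO with WT asks which genes depend on the enzyme, and that of KOT with WT asks which of them are still apart from WT after gene transfer.

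The Lipa-/- mice lacked exon 4 of Lipa in every tissue through Cre under the CMV promoter. The paper calls the promoter of the vector hepatocyte-specific, but raises that the vector might also enter other cells. The paper reports that hepatocytes secreted the enzyme into the circulation, so cells without the gene could still receive the enzyme. Per the study's methods, the mice were 10 to 12 weeks old at injection, and most untreated Lipa-/- mice were killed before 34 weeks on reaching predefined endpoints. The labels do not give the age at death of the 3 KO mice placed at 34 weeks. The time points also carry different study codes in the labels, so that time and study code cannot be told apart. KO mouse 5 at 12 weeks carries a code that no other mouse has, and the calls on KO against WT at 12 weeks given for Fth1, Hamp2 and Slc11a1 held without it.

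Between 17527848 and 25833134 reads per liver were assigned to genes. Lipa, in CPM (read counts scaled to the library's total after TMM scaling), ranged from 202 to 323 in WT livers and from 16.7 to 37.0 in KO and KOT livers. The human LIPA transcript was at 523 to 2746 CPM in KOT livers and at 0.906 CPM or less in all others. The scaling factors ranged from 0.587 in a KOT liver at 12 weeks to 1.69 in a KO liver at 34 weeks. With total counts in place of these factors, the median log2 difference of all genes moved by 0.47 in KO against WT at 12 weeks, by 0.628 at 34 weeks and by -0.4 in KOT against WT at 12 weeks. Every difference below is therefore relative to the bulk of the genes in the same livers. The livers also differed in their makeup. The summed CPM of 9 macrophage markers was 86.1 to 193 in WT and 4917 to 9759 in KO at 12 weeks, and that of 10 hepatocyte markers was 69077 to 87448 and 41598 to 60233. In bulk tissue, fewer cells of a type and less RNA per cell cannot be told apart.

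Iron in the body is held in balance by hepcidin, a small peptide hormone made by hepatocytes. Hepcidin binds ferroportin, the only known cellular iron exporter of mammals, and has it degraded, so that high hepcidin keeps iron inside cells and low hepcidin releases it. Hepcidin transcription is driven by iron through BMP ligands, hemojuvelin, Hfe, Tfr2 and SMAD proteins, and by inflammation through interleukin 6 and STAT3. Within cells, the iron regulatory proteins bind a short RNA hairpin, the iron-responsive element. In a 5′ UTR the bound hairpin blocks translation, as in the ferritins and ferroportin, and in a 3′ UTR it shields the mRNA from decay, as in Tfrc.

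The hairpins are shown because they mark genes whose mRNA is controlled in this way, which bears on what an mRNA count can show. A search of the annotated UTRs of 1 canonical transcript per gene (GRCm39) looked on the sense strand for the apical loop CAGTGN, shown in capitals, with a C 5 bases before it and 5 pairing bases on either side. It found the pattern in the 5′ UTR of 24 of 21770 genes (0.11%) and in the 3′ UTR of 125 (0.574%), and in 3 and 1 of these 10 genes. Elements in other transcripts of a gene, or with another stem, would be missed. The genes without a hit, Slc11a2 among them, are therefore not shown to lack an element. The Fth1 element is at chr19:9960096-9960124 on the + strand, that of Ftl1 at chr7:45109203-45109231 on the - strand, and that of Slc40a1 at chr1:45964625-45964653 on the - strand. The 4 Tfrc elements lie on the + strand at chr16:32450037-32450065, chr16:32450416-32450444, chr16:32450481-32450509 and chr16:32450528-32450556. 5′ to 3′, they read:
Fth1 5′ UTR: ttcctgcttcaaCAGTGCttgaacggaac
Ftl1 5′ UTR: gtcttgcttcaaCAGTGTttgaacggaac
Slc40a1 5′ UTR: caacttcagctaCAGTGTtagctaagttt
Tfrc 3′ UTR, element 1: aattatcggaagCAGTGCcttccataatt
Tfrc 3′ UTR, element 2: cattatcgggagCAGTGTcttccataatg
Tfrc 3′ UTR, element 3: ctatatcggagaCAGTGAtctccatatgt
Tfrc 3′ UTR, element 4: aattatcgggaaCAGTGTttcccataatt

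In coding sequence Hamp and Hamp2 were identical at 233 of 249 bases (93.6%), and 31.4% of the 31-base words of the Hamp2 transcript also occur in Hamp, so the split of reads between them is uncertain.

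In WT livers, Trf was the most abundant of the 10 transcripts per length. Its level was 12724 ± 1302 TPM (transcript abundance per length; SD, n = 6 WT livers, both time points), which ranked 14 among the 14533 genes tested. Ftl1 (5407 ± 1055), Hamp (4925 ± 2365) and Fth1 (2239 ± 556) followed, and Hamp overlapped both ferritins across livers. Tfr2 was at 143 ± 40.9 TPM, above Hamp2 at 70.6 ± 22.1, with no overlap between livers. Slc40a1 was at 28.6 ± 7.28, and Slc11a2 (8.27 ± 2.85), Tfrc (6.51 ± 2.02) and Slc11a1 (3.82 ± 2.58) overlapped each other at the low end. Trf, Hamp and Tfr2 are hepatocyte transcripts, and Tfr2 was above Tfrc in every WT liver.

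**Figure D1:**
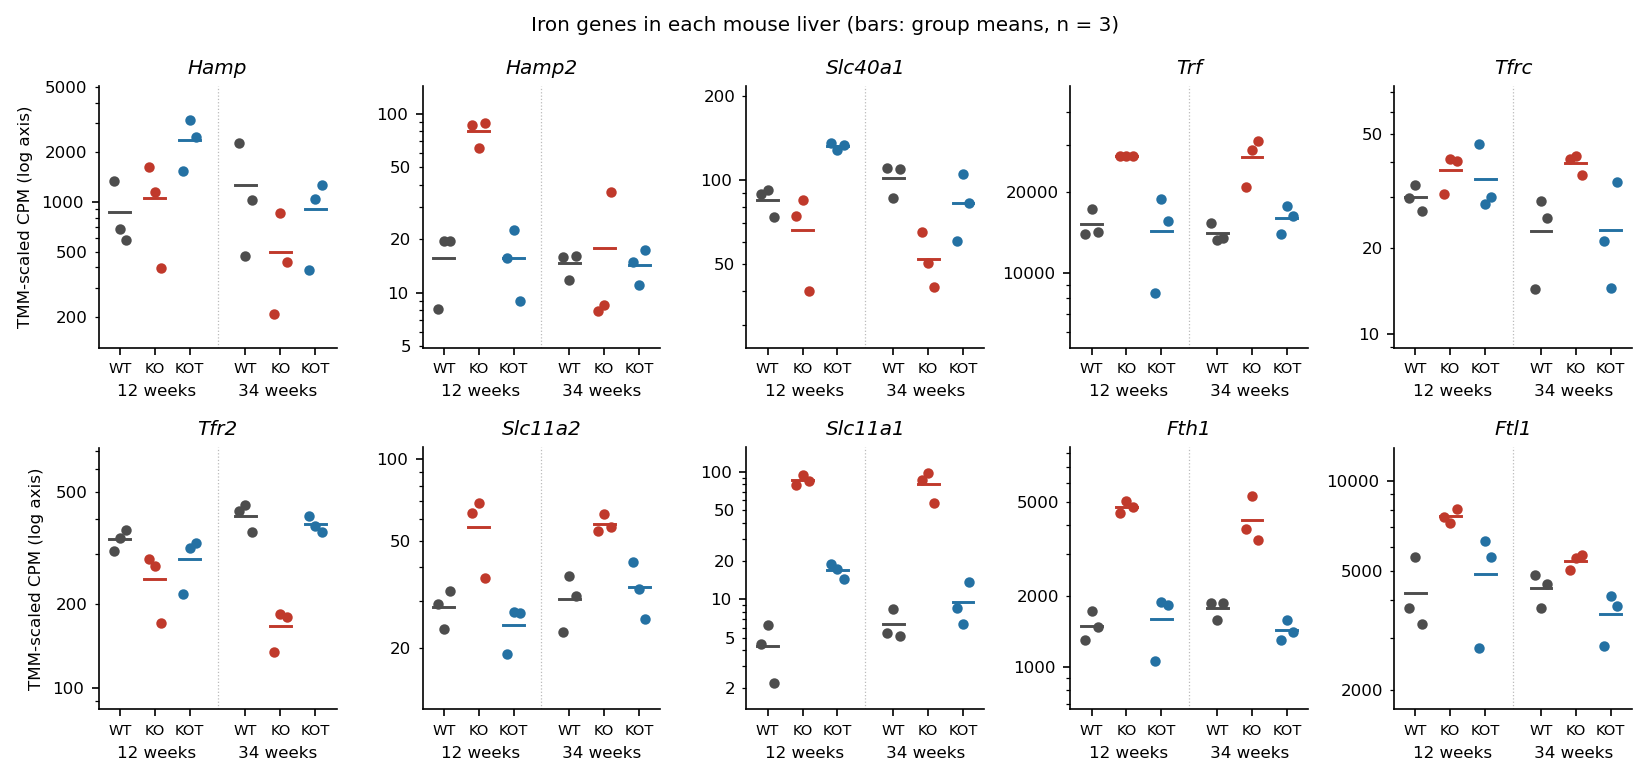
TMM-scaled CPM (log axis) of the 10 iron genes in each of the 18 livers, with WT, KO and KOT side by side at 12 and 34 weeks and bars at the group means (n = 3). Slc11a1 and Fth1 of KO livers stood above all WT livers at both time points, while Hamp2 stood apart in KO livers at 12 weeks and Hamp scattered within every group.

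Hamp (chr7:30641766-30643990, - strand) encodes hepcidin itself. At 12 weeks it was at 1333, 689 and 591 CPM in WT livers, at 1620, 1156 and 397 CPM in KO livers and at 1545, 3156 and 2472 CPM in KOT livers. At 34 weeks it was at 2287, 468 and 1034 CPM in WT, at 209, 853 and 429 CPM in KO and at 386, 1039 and 1273 CPM in KOT. The KOT livers at 12 weeks all lay above the WT livers, and the other groups overlapped their controls. Hamp did not pass the test in KO against WT, with a log2 difference of 0.28 ± 0.63 (SE; 95% interval -1.05 to 1.62; edgeR quasi-likelihood test, Benjamini-Hochberg adjusted p = 0.758) at 12 weeks and of -1.35 ± 0.64 (-2.70 to 0.0114; adjusted p = 0.0955) at 34 weeks. In KOT against WT the log2 difference was 1.46 ± 0.64 (adjusted p = 0.0832) at 12 weeks and -0.49 (adjusted p = 0.975) at 34 weeks.

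Hamp was among the most variable genes between mice of one group. Its pooled within-group SD was 0.91 log2 CPM, at the 97.0th percentile of 11794 genes whose median SD was 0.366, and the highest liver of a group was 2.04 to 4.88 times the lowest. The KO difference at 34 weeks ranged from -1.98 to -0.60 as each mouse was left out. It passed the test without WT mouse 2 (-1.74, adjusted p = 0.0390) or KO mouse 5 (-1.98, adjusted p = 0.0397), and had adjusted p = 0.49 without WT mouse 1, the highest WT liver. Hamp is also short, with a mean effective length of 186 bases. In KOT against WT at 12 weeks the median log2 difference ran from 0.818 in the shortest of 5 equal classes of gene length to -0.38 in the longest. With that trend removed, the Hamp difference there was 0.38 (adjusted p = 0.605), while that of KO against WT at 34 weeks was -1.45 and passed (adjusted p = 0.0384).

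Hamp2 (chr7:30621797-30624106, - strand), the second mouse hepcidin gene, rose in KO livers at 12 weeks. It was at 85.9, 64.1 and 89.2 CPM in KO against 8.09, 19.4 and 19.4 CPM in WT, a log2 difference of 2.35 ± 0.51 (adjusted p = 0.0016). In KOT livers at 12 weeks it was at 15.7, 22.4 and 8.97 CPM, within the range of the WT livers but for 1 liver above it, and lower than in KO by 2.34 on the log2 scale (-2.34 ± 0.51, adjusted p = 0.00129). At 34 weeks the groups overlapped, with 15.9, 11.8 and 16.1 CPM in WT, 7.88, 8.5 and 36.7 CPM in KO and 14.8, 11.0 and 17.2 CPM in KOT. The KO difference was then 0.28 ± 0.49 (adjusted p = 0.673) and turned to -0.83 without KO mouse 6, the high liver.

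Within KO livers, Hamp2 was lower at 34 than at 12 weeks, with no overlap, by a log2 difference of -2.17 ± 0.51 that narrowly missed the threshold (adjusted p = 0.057). Without KO mouse 6 at 34 weeks it was -3.28 and passed (adjusted p = 0.00129). The change of the KO difference with time did not pass (-2.07, adjusted p = 0.307). Hamp2 is also a minor share of the hepcidin transcripts. Of Hamp and Hamp2 TPM together it made up 0.577, 2.62 and 3.01% in WT livers and 4.78, 4.94 and 17.5% in KO livers at 12 weeks. At 34 weeks it was 0.659, 2.33 and 1.46% in WT and 3.36, 0.928 and 7.46% in KO. Averaged over the time points, the share was higher in KO by 1.65 on the log2 scale (two-sided exact permutation test within time points, 6 against 6 mice, p = 0.04, adjusted over 6 ratio tests p = 0.08).

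Ferroportin, Slc40a1 (chr1:45947211-45965683, - strand), exports iron from macrophages, hepatocytes and enterocytes. At 34 weeks it was at 110, 86.3 and 109 CPM in WT livers and at 64.8, 50.4 and 41.1 CPM in KO livers, which did not overlap. The log2 difference was -0.97 ± 0.26 (adjusted p = 0.00636), just inside the 2-fold limit, and it passed that limit with edgeR and length offsets (-1.02) and with the length trend removed (-1.19). With total counts it was -0.30 (adjusted p = 0.373) and by limma on TPM -0.35, so the difference rests on scaling to the bulk of the genes. At 12 weeks the KO livers (74.1, 84.7 and 39.9 CPM) overlapped the WT livers (88.9, 92.1 and 73.5 CPM) and the difference was -0.36 ± 0.26 (adjusted p = 0.305). Macrophage markers at 34 weeks were at 4949 to 7062 CPM in KO and 153 to 286 CPM in WT. Markers of resident Kupffer cells, the macrophages known for ferroportin, were at 52.8 to 334 CPM in KO and 155 to 314 CPM in WT, with 3 of 6 lower and 0 higher. Their part in the Slc40a1 level was not tested.

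In KOT livers, Slc40a1 was at 136, 128 and 133 CPM at 12 weeks, above all WT and KO livers. The log2 difference from WT was 0.64 ± 0.26 (adjusted p = 0.0654), and on the TPM scale it was -0.05, so no direction is given. At 34 weeks the KOT livers (60.2, 105 and 82.4 CPM) overlapped both other groups, with a log2 difference of 0.66 ± 0.26 from KO (adjusted p = 0.054).

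Transferrin, Trf (chr9:103081200-103107814, - strand), is the plasma iron carrier that hepatocytes secrete. It was at 27308, 27220 and 27398 CPM in KO livers at 12 weeks against 13955, 17318 and 14212 CPM in WT livers. At 34 weeks it was at 20936, 28757 and 31157 CPM in KO and at 15306, 13243 and 13471 CPM in WT. KO livers lay above all WT livers at both time points. The log2 difference was 0.85 ± 0.32 (adjusted p = 0.0416) at 12 weeks and 0.94 ± 0.32 (adjusted p = 0.0209) at 34 weeks, both short of 2-fold. On the TPM scale, which has no TMM factor and divides by the effective length estimated in each liver, the means were further apart (12276 against 46743 TPM at 12 weeks). There the log2 difference at 34 weeks was 1.95 and passed (limma, adjusted p = 3.53e-04). In KOT livers Trf was at 8384, 18778 and 15631 CPM at 12 weeks and at 13946, 17697 and 16236 CPM at 34 weeks, and it was lower than in KO at 12 weeks by 0.94 on the log2 scale (adjusted p = 0.0197). The higher Trf of KO livers stood beside lower hepatocyte markers, 0 of 10 of which rose and 4 fell at 12 weeks and 8 at 34 weeks.

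The 2 transferrin receptors differed in direction in KO livers. Tfr2 (chr5:137568087-137586343, + strand), the hepatocyte receptor that senses loaded transferrin and feeds into hepcidin control, was at 135, 184 and 179 CPM in KO livers at 34 weeks against 426, 449 and 360 CPM in WT. It fell by 1.31 on the log2 scale (-1.31 ± 0.23, adjusted p = 2.02e-04). With total counts the difference was -0.69 and on the TPM scale -0.61 (adjusted p = 0.0266 and, by limma, 0.0873), so the call rests on scaling to the bulk of the genes. At 12 weeks Tfr2 was at 288, 273 and 171 CPM in KO and at 308, 342 and 367 CPM in WT, without overlap but with adjusted p = 0.114 (log2 difference -0.47).

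Tfrc (chr16:32427556-32451612, + strand), the receptor that takes up loaded transferrin in most cells, was higher in KO livers at 34 weeks. At 34 weeks it was at 40.9, 41.8 and 36.0 CPM in KO and at 14.3, 29.2 and 25.4 CPM in WT, a log2 difference of 0.78 ± 0.30 (adjusted p = 0.0388) short of 2-fold. At 12 weeks KO (30.9, 41.0 and 40.4 CPM) and WT livers (29.9, 33.1 and 27.0 CPM) overlapped, with a difference of 0.32 ± 0.30 (adjusted p = 0.42). Treated livers at 34 weeks were at 21.1, 14.4 and 34.0 CPM for Tfrc and at 410, 379 and 359 CPM for Tfr2. Compared with KO, Tfr2 was higher there by 1.21 on the log2 scale (adjusted p = 5.17e-04), or by 0.68 with total counts (adjusted p = 0.033) and by limma on TPM (adjusted p = 0.0646), and Tfrc differed by -0.77 (adjusted p = 0.0467).

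The ratio of Tfrc to Tfr2 TPM within each liver, which scaling between livers cannot move, was 0.0567 ± 0.0104 in WT and 0.112 ± 0.0473 in KO livers at 12 weeks and 0.0371 ± 0.0128 and 0.168 ± 0.0354 at 34 weeks (SD, n = 3). It was higher in every KO liver than in the WT livers of the same time point. Averaged over the time points the ratio was 2.97-fold higher in KO (two-sided exact permutation test within time points, p = 0.005, the smallest the design allows; adjusted p = 0.015). In KOT livers it was 0.109 ± 0.0729 at 12 weeks, with mouse 10 at 0.193, and 0.0388 ± 0.0204 at 34 weeks, and the difference from WT did not pass the same exact permutation test (p = 0.345). A ratio shows that the receptors changed unequally and not which of them moved. Erythroid precursors are rich in Tfrc. Summed erythroid markers, mostly globins and Alas2, were at 215 to 263 CPM in KO and 220 to 548 CPM in WT at 12 weeks. At 34 weeks they were at 488 to 990 and 249 to 516 CPM. Of 12 such markers 8 were tested, with 0 higher and 1 lower in KO at 12 weeks and 1 higher and 2 lower at 34 weeks. Among them Alas2, the erythroid enzyme of heme synthesis, fell from a mean of 151 CPM in WT to 14.3 in KO at 12 weeks and from 99.0 to 14.1 at 34 weeks (adjusted p = 9.82e-08 and 3.88e-07), while the globin Hbb-bs was at 105 and 106 CPM and at 130 and 306 CPM (adjusted p = 0.99 and 0.189). At 34 weeks Slc4a1 was called higher in KO (3.52, from a mean of 0.137 CPM in WT to 1.7) and Klf1 lower (-1.75, from 1.96 to 0.581). The part of the erythroid markers in the Tfrc level was not tested.

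**Figure D2:**
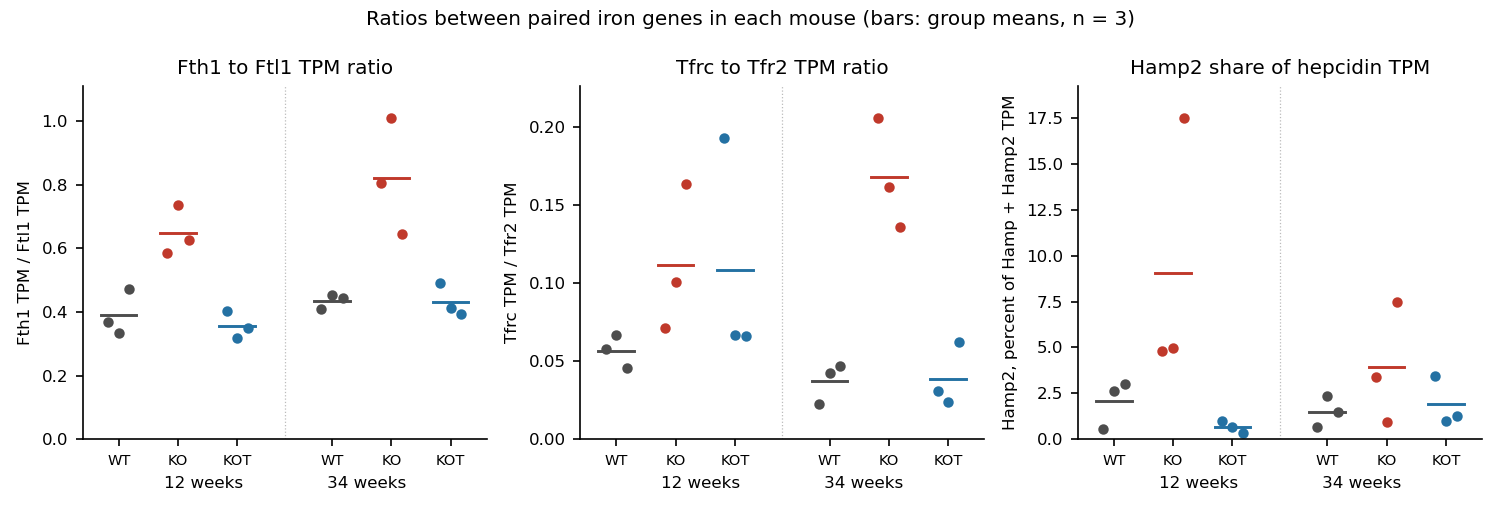
Ratios of Fth1 to Ftl1 TPM and Tfrc to Tfr2 TPM, and Hamp2 as a percent of hepcidin TPM, in each of the 18 livers, with bars at the group means (n = 3). KO livers lay above the WT livers of the same time point in the ferritin and receptor ratios, and KOT livers at 34 weeks were near WT, with Tfrc to Tfr2 at 0.0388 against 0.0371.

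Slc11a1 (chr1:74414303-74425448, + strand) showed the largest difference of the 10 genes. It encodes Nramp1, which moves iron and other divalent metals out of the phagosomes of macrophages and neutrophils. At 12 weeks it was at 79.0, 94.9 and 85.6 CPM in KO livers and at 4.5, 6.32 and 2.2 CPM in WT livers, and at 34 weeks at 87.3, 97.4 and 57.0 CPM in KO and at 5.49, 8.43 and 5.18 CPM in WT. It rose in KO by 4.31 ± 0.38 on the log2 scale at 12 weeks (adjusted p = 2.99e-07) and by 3.66 ± 0.36 at 34 weeks (adjusted p = 7.40e-07). Macrophage markers moved with it, with 9 of 9 higher at both time points and a median log2 difference of 6.20 and 5.37. Neutrophil markers did too, with 8 of 8 higher at 12 weeks and 7 of 8 at 34 weeks, at 134 to 1743 CPM in KO against 1.29 to 2.30 CPM in WT at 12 weeks. Their part in the Slc11a1 level was not tested.

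Slc11a1 was also the 1 gene of the 10 that passed the test between treated and WT livers. In KOT livers at 12 weeks it was at 18.8, 17.3 and 14.5 CPM, above all WT and below all KO livers, and higher than WT by 1.96 ± 0.35 on the log2 scale (adjusted p = 0.00252). This call held in 7 of 9 other settings and in 18 of 18 refits without 1 mouse, but not in the settings given next. With edgeR and effective lengths as offsets the difference was 1.17 (adjusted p = 0.052), and on the TPM scale it was 0.76 (limma, adjusted p = 0.237), where the group means were 3.23 in WT and 4.71 in KOT. Macrophage markers in these livers were at 664 to 2531 CPM, with 7 of 9 higher than in WT. At 34 weeks Slc11a1 was at 8.58, 6.45 and 13.6 CPM in KOT, a log2 difference from WT of 0.59 ± 0.34 (adjusted p = 0.927). It fell relative to KO, with a log2 difference of -2.36 ± 0.34 (adjusted p = 4.99e-05) at 12 weeks and -3.07 ± 0.35 (adjusted p = 4.94e-06) at 34 weeks.

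Slc11a2 (chr15:100285776-100322953, - strand) encodes DMT1, which carries iron across the gut brush border and out of endosomes. It was at 63.5, 69.1 and 36.3 CPM in KO livers against 29.2, 23.6 and 32.6 CPM in WT at 12 weeks, and at 54.4, 62.9 and 56.3 against 23.0, 36.9 and 31.3 CPM at 34 weeks. KO and WT did not overlap. The log2 difference was 0.98 ± 0.26 (adjusted p = 0.00609) and 0.93 ± 0.26 (adjusted p = 0.00701), in both cases just short of 2-fold. KOT livers, at 19.1, 27.2 and 27.1 CPM at 12 weeks and at 41.9, 33.1 and 25.8 CPM at 34 weeks, lay below all KO livers. The log2 difference from KO was -1.20 ± 0.26 (adjusted p = 0.0012) at 12 weeks, or -0.76 with the length trend removed, and -0.78 (adjusted p = 0.0216) at 34 weeks.

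Fth1 (chr19:9957911-9962462, + strand), the heavy subunit of ferritin, which oxidises iron for storage, rose in KO livers at both time points. It was at 4493, 5021 and 4759 CPM in KO and at 1296, 1730 and 1470 CPM in WT at 12 weeks, and at 3848, 5286 and 3449 CPM in KO and at 1861, 1583 and 1864 CPM in WT at 34 weeks. The log2 difference was 1.67 ± 0.27 (adjusted p = 1.13e-04) and 1.25 ± 0.26 (adjusted p = 9.44e-04). In KOT livers Fth1 was at 1064, 1889 and 1837 CPM at 12 weeks and at 1303, 1584 and 1409 CPM at 34 weeks. These values overlapped WT and lay below all KO livers, with a log2 difference from KO of -1.58 ± 0.27 (adjusted p = 1.74e-04) and -1.55 ± 0.27 (adjusted p = 1.96e-04).

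Ftl1 (chr7:45107367-45109308, - strand), the light subunit, which aids core formation, moved less. It was at 7571, 7220 and 8063 CPM in KO against 3762, 5560 and 3321 CPM in WT at 12 weeks, a log2 difference of 0.85 ± 0.31 (adjusted p = 0.037) short of 2-fold. At 34 weeks it was at 5042, 5518 and 5642 CPM in KO and at 4852, 3760 and 4532 CPM in WT, without overlap but with a difference of 0.30 ± 0.31 (adjusted p = 0.444). KOT livers ranged from 2773 to 6293 CPM over both time points. The ferritin genes have processed copies elsewhere in the genome, so reads could be split with these.

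The ratio of Fth1 to Ftl1 TPM was 0.392 ± 0.0724 in WT and 0.649 ± 0.0785 in KO livers at 12 weeks and 0.435 ± 0.0222 and 0.82 ± 0.182 at 34 weeks (SD, n = 3). Every KO liver lay above the WT livers of its time point, and the lowest KO liver, at 0.585, lay above the highest WT liver, at 0.473. Averaged over the time points, the ratio was 1.76-fold higher in KO (two-sided exact permutation test within time points, p = 0.005, the smallest the design allows; adjusted p = 0.015). In KOT livers it was 0.357 ± 0.0432 and 0.432 ± 0.0528, and the difference from WT did not pass the same exact permutation test (p = 0.515). Both subunits carry the 5′ UTR hairpin shown above, so their mRNA counts do not give the protein they yield.

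**Figure D3:**
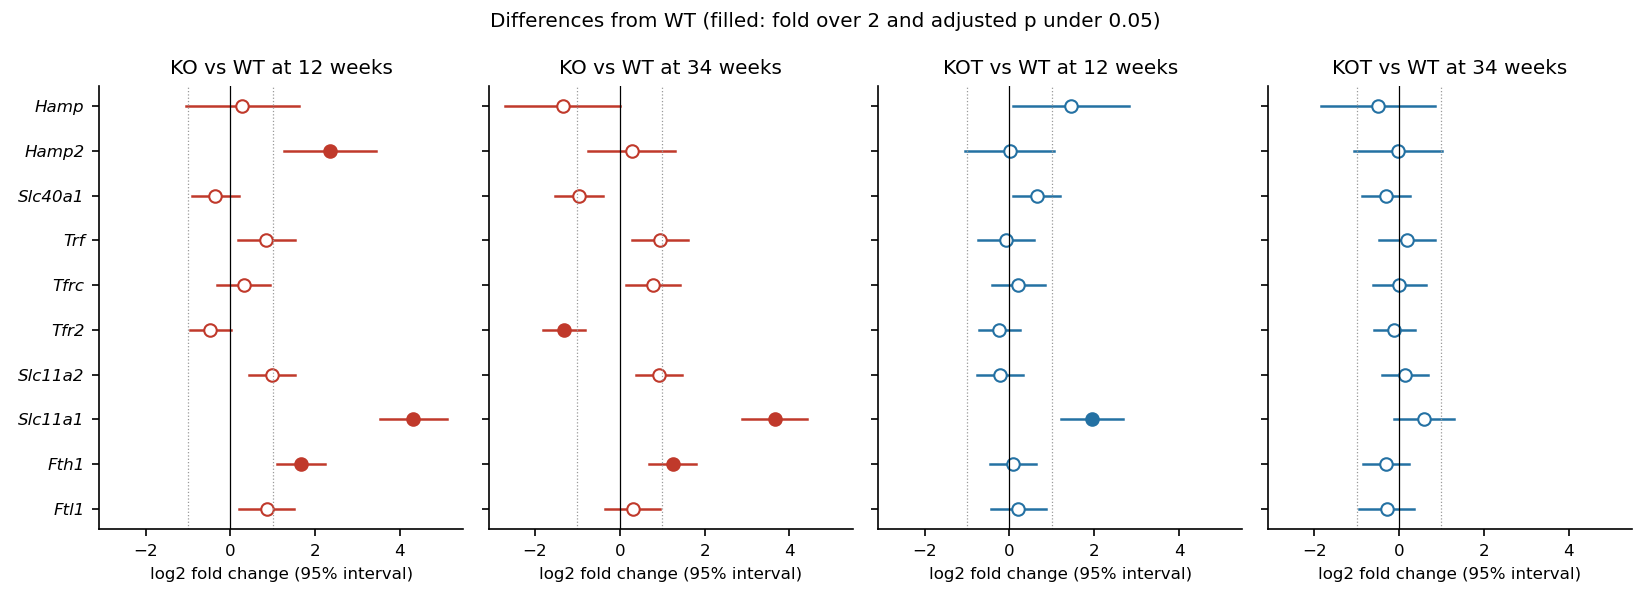
Log2 fold change of each of the 10 genes in KO and KOT livers against WT livers at 12 and 34 weeks, with 95% intervals from edgeR, filled where the fold was over 2 and the adjusted p under 0.05, and dotted lines at a 2-fold change. Fth1 and Slc11a1 are filled in KO at both time points, Hamp2 at 12 weeks and Tfr2 at 34 weeks, while in KOT Slc11a1 is filled at 12 weeks and no gene at 34 weeks.

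Counted together, 3 of the 10 genes passed the 2-fold and adjusted p limits in KO at 12 weeks (Fth1, Hamp2 and Slc11a1, all higher), where 29.3% of all genes tested did and 20.2% did so with a higher level. At 34 weeks 3 passed (Fth1 and Slc11a1 higher, Tfr2 lower) against 36.3% of all genes. The share of the iron genes called was thus near that of the whole table. The adjusted p alone was passed by 6 genes at 12 weeks (39.2% of all genes) and by 7 at 34 weeks (47.3%). KO and WT livers did not overlap in 7 genes at 12 weeks (52.7% of all genes) and in 8 at 34 weeks (60.3%). The median log2 difference of the 10 was 0.851 at 12 weeks and 0.543 at 34 weeks, against 0.0184 and -0.0266 over all genes.

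In treated livers 1 of the 10 (Slc11a1) passed at 12 weeks, where 25.5% of all genes did (11.3% without WT mouse 3 and 12.4% without KOT mouse 10 at 12 weeks), with a median log2 difference of 0.152. At 34 weeks 0 of the 10 passed, 0 reached an unadjusted p under 0.05 by edgeR (5.76% of all genes did), and 0.220% of all genes passed. Across the 10 genes, the log2 difference between KOT and WT at 34 weeks ran from -0.49 for Hamp to 0.59 for Slc11a1, with 95% intervals of -1.83 to 0.847 and -0.123 to 1.29, so these intervals still allow differences of over 2-fold. Against KO, which shares its mice with the comparisons of KO with WT, KOT livers passed in 4 of 10 genes at 12 weeks (Fth1, Hamp2, Slc11a1 and Slc11a2, all lower), where 41.5% of all genes passed and 25.3% did so with a lower level. At 34 weeks 3 passed (Fth1 and Slc11a1 lower, Tfr2 higher), where 31.5% of all genes passed.

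With time, 0 of the 10 genes passed in WT (0.323% of all genes passed), in KO (0.495%) or in KOT livers (32.0%). At an unadjusted p under 0.05 by edgeR, 0 did so in WT (7.80% of all genes), 2 in KO (15.6%) and 3 in KOT (53.1%). The differences between time points of KO against WT passed in 0 genes (0.0619% of all genes; 2 of the 10 unadjusted by edgeR, against 9.48%), and those of KOT against WT in 0 (18.4%; 3 unadjusted, against 38.0%). For the KO calls at 1 time point only (Hamp2 and Tfr2), a difference between the time points was therefore not shown, with an interaction of -0.84 for Tfr2 (adjusted p = 0.391).

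Of 17 genes of the BMP-SMAD route to hepcidin, target genes included, 2 were higher and 3 lower in KO livers at 12 weeks (median log2 difference -0.305) and 0 higher and 5 lower at 34 weeks (median -0.211). Of all genes, 20.2% were called higher and 9.06% lower at 12 weeks, and 20.5% and 15.7% at 34 weeks. With total counts the list had 3 higher and 2 lower at 12 weeks and 1 higher and 0 lower at 34 weeks, so the lower calls at 34 weeks rest on scaling to the bulk of the genes. The ligand Bmp2, made by sinusoidal endothelium, fell from a mean of 14.2 CPM in WT to 3.90 in KO at 12 weeks and from 14.3 to 5.30 at 34 weeks (log2 difference -1.86 and -1.42, adjusted p = 2.40e-04 and 0.00145). The ligand Bmp6 fell from 4.19 to 1.09 CPM at 12 weeks (-1.95, adjusted p = 0.00136) and was at 4.79 and 3.19 CPM at 34 weeks (adjusted p = 0.229). Summed endothelial markers were at 138 to 179 CPM in WT and 117 to 132 CPM in KO at 12 weeks, and at 170 to 191 and 183 to 232 CPM at 34 weeks. Of 7 such markers, 2 were higher (among them Stab1, 1.34 and 1.81) and 2 lower (Clec4g, -2.17 and -2.70, and Kdr, -2.09 and -1.38) at each time point, and their part in the Bmp2 level was not tested.

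At 34 weeks the BMP coreceptor Hjv (-1.20, adjusted p = 3.49e-04), the Tfr2 partner Hfe (-1.11, adjusted p = 7.36e-04) and Tmprss6, the protease that cleaves hemojuvelin and so restrains hepcidin (-1.40, adjusted p = 7.49e-04), all fell in KO, as did the receptor Acvr2a (-1.10, adjusted p = 5.57e-05). The receptors Bmpr1a, Bmpr2, Acvr1 and Neo1 were at -0.21, 0.68, 0.31 and -0.07 and did not pass (adjusted p = 0.357, 0.12, 0.226 and 0.87). The fallen genes include both activators and an inhibitor of hepcidin, and stood beside hepatocyte markers at 23867 to 49866 CPM in KO against 65434 to 84609 CPM in WT. The SMAD target genes Id1 (2.18, adjusted p = 0.00415) and Atoh8 (1.26, adjusted p = 0.0297) rose in KO at 12 weeks, when Hamp did not pass. At 34 weeks their log2 differences were 0.58 and 0.32 (adjusted p = 0.376 and 0.565).

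In KO livers 20.2% and 20.5% of all genes were called higher at 12 and 34 weeks. Of 8 tested genes of the inflammatory route to hepcidin, target genes included, 3 were higher and 0 lower at each time point (median log2 difference 0.51 and 0.557). They were Socs3, the feedback target of STAT3, at 4.89 CPM in WT and 36.6 in KO at 12 weeks and 9.80 and 48.2 at 34 weeks (2.91 and 2.30, adjusted p = 0.00292 and 0.00867), Inhbb, which encodes the activin B subunit (1.21 and 2.40), and Il6ra, a chain of the interleukin 6 receptor (1.44 and 1.48). The Il6ra call at 12 weeks held in 5 of 9 other settings and in 6 of 18 refits without 1 mouse. Il6 itself had 45 reads over all 18 livers and was not tested. Of 6 tested genes of erythroid drive and hypoxia, 1 was higher at 12 weeks, the stress cytokine Gdf15 (2.47, adjusted p = 1.25e-04), and 0 passed at 34 weeks. Epo and Erfe, the kidney hormone of red cell production and its target that lowers hepcidin, had 13 and 5.36 reads over all livers, below the filter.

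Among all genes, 9.06% and 15.7% were called lower in KO at 12 and 34 weeks. Of 6 genes of iron sensing and ferritin turnover, 0 were higher and 2 lower in KO at each time point. The 2 were the iron regulatory proteins Aco1 (-1.23 and -1.68, adjusted p = 0.00124 and 6.39e-05) and Ireb2 (-1.35 and -1.40, adjusted p = 5.07e-05 and 2.56e-05). With total counts 0 were lower at 12 weeks and 1 at 34 weeks, and by limma on TPM 0 at either. Ncoa4, which delivers ferritin to lysosomes, was at -0.15 and -0.46, and Fbxl5, which has Ireb2 degraded when iron is high, at 0.08 and -0.57 (adjusted p = 0.897 and 0.246). In KOT at 12 weeks Fbxl5 was higher than in WT (1.39, adjusted p = 0.0142) and 0 of the 6 were lower.

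Of 15 other iron transport genes tested, 6 were higher, 1 lower and 8 not called at 12 weeks and 6 higher, 2 lower and 7 not called at 34 weeks (median log2 difference 0.488 and 0.885), beside 20.2% and 20.5% of all genes called higher. By limma on TPM, 7 and 11 were higher. Lcn2, which binds bacterial siderophores and is made by hepatocytes and neutrophils in inflammation, went from a mean of 2.64 CPM in WT to 1928 in KO at 12 weeks and from 26.5 to 1991 at 34 weeks (9.51 and 6.23, adjusted p = 3.53e-05 and 3.21e-04). Neutrophil markers moved with it as given above, at 113 to 302 CPM in KO and 1.05 to 5.78 CPM in WT at 34 weeks, and their part was not tested. Cp, the ferroxidase ceruloplasmin that works with ferroportin, rose from 789 to 2515 CPM and from 919 to 2463 CPM (1.67 and 1.42, adjusted p = 1.11e-04 and 3.19e-04). The ferrireductase Steap4 also rose (adjusted p = 0.00148 and 0.0121), while Slc39a8, a zinc and iron importer, fell (-1.28 and -1.52), and Slc39a14, the importer of iron not bound to transferrin in hepatocytes, was at -0.04 and 0.14 (adjusted p = 0.92 and 0.706).

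Of 13 heme recycling genes, 8 were higher and 2 lower in KO at 12 weeks and 4 higher and 2 lower at 34 weeks (median log2 difference 1.33 and 0.622), beside 20.2% and 20.5% of all genes called higher. At 34 weeks the higher calls were 2 without WT mouse 3 or KO mouse 5, 9 with total counts and 10 by limma on TPM. Hmox1, the inducible heme oxygenase that frees iron from heme, rose from 10.0 to 103 CPM and from 17.6 to 102 CPM (3.36 and 2.53, adjusted p = 2.36e-07 and 1.80e-06), and the heme exporter Flvcr1 rose too (2.72 and 2.84). The heme and folate carrier Slc46a1 fell (-1.08 and -1.82). Cd163, the receptor by which macrophages take up haptoglobin-bound hemoglobin, was at 93, 127 and 87 reads in WT livers and at 5, 6 and 1 reads in KO livers at 12 weeks, and at 109, 317 and 206 reads in WT and 21, 7 and 1 in KO at 34 weeks (adjusted p = 4.63e-04 and 2.80e-04). The 9 macrophage markers rose in the same livers. Of the markers of resident Kupffer cells, Timd4 fell at both time points (-3.62 and -3.84, adjusted p = 0.00299 and 0.00105), and Clec4f (-2.73) and Folr2 (-1.89) fell at 34 weeks, while Marco (4.31) and Cd5l (1.70) rose at 12 weeks. Their part in the levels of Cd163, Hmox1 and the other recycling genes was not tested. Spic, a transcription factor of iron-recycling macrophages, was higher at 12 weeks (3.01, adjusted p = 0.0019) and at 1.23 at 34 weeks (adjusted p = 0.112).

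Of 8 heme synthesis genes, 0 were higher and 2 lower in KO at 12 weeks and 0 higher and 6 lower at 34 weeks (median log2 difference -0.925 and -1.40), beside 9.06% and 15.7% of all genes called lower. With total counts 1 and 2 were lower, and by limma on TPM 1 and 3. Cpox, which oxidises coproporphyrinogen, fell from 125 to 31.6 CPM and from 148 to 23.4 CPM (-1.98 and -2.66, adjusted p = 9.03e-06 and 5.06e-07). Fech, which inserts iron into the porphyrin ring, fell at both time points (-1.10 and -1.46, adjusted p = 3.11e-04 and 1.62e-05), and Alas1, the rate-limiting enzyme in liver, was at -1.26 and -0.06 without passing (adjusted p = 0.0525 and 0.933). Hepatocyte markers were lower in the same livers, as given above, and their part was not tested. The lists of other iron and heme genes had 0 calls in KOT livers at 34 weeks. At 12 weeks in KOT, heme recycling had 6 higher and 1 lower (2 higher without KOT mouse 10 or WT mouse 3), where 13.6% of all genes were called higher and 12.0% lower, and each other list had at most 1 higher and at most 2 lower. Hmox1 was higher there (1.04, adjusted p = 0.00962), as was Spic (2.67, adjusted p = 0.0091), while Cd163 was at 0, 2 and 16 reads. The Hmox1 call held in 5 of 9 other settings, with a log2 difference down to 0.393, and in 13 of 18 refits without 1 mouse. The Spic call held in all 9 settings and all 18 refits.

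**Figure D4:**
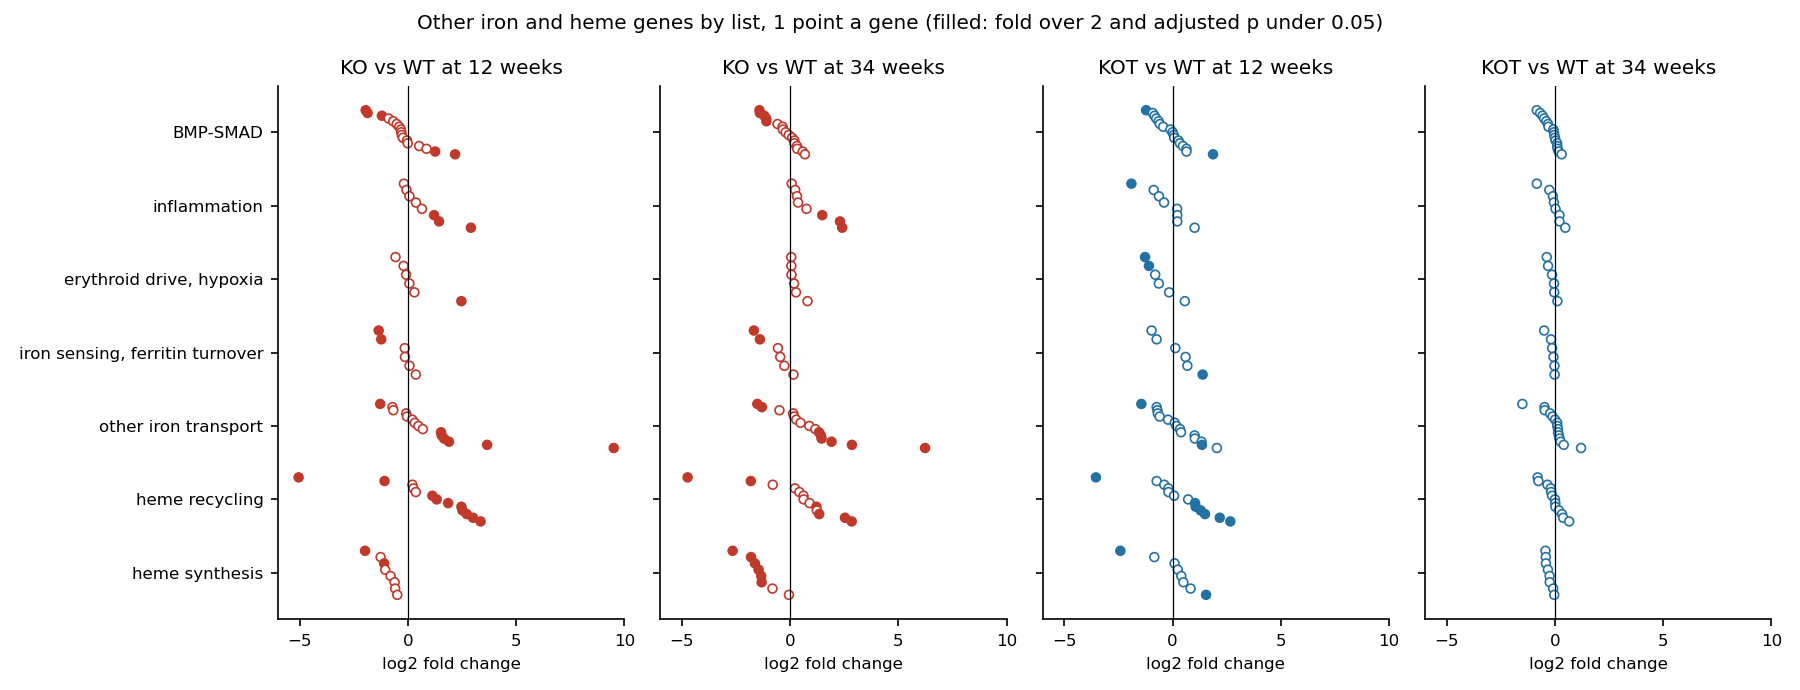
Log2 fold change of each tested gene in 7 lists of other iron and heme genes, in KO and KOT livers against WT livers at 12 and 34 weeks, with 1 point per gene, filled where the fold was over 2 and the adjusted p under 0.05. In KO livers heme synthesis genes lie left of 0 and most heme recycling and iron transport genes lie right of it, with Lcn2 at the far right and Cd163 at the far left, and in KOT livers at 34 weeks no point is filled.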

How the data were processed

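The authors aligned paired-end reads of poly-A RNA to GRCm39 transcripts (Ensembl cDNA) with Salmon and summarised them per gene with tximport, and the submitters' processing notes name R 4.3.0 and DESeq2 1.40.1. They deposited estimated counts (19.4% of the values were not whole), TPM and average effective gene lengths, the latter a score used only for offsets and length trends. Each mouse was placed by its label, and the 3 mice of a group were separate animals.

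Estimated counts were rounded and tested with edgeR 4.0.16 in R 4.3.3 (quasi-likelihood test on 6 group means, TMM factors, genes with more than 100 reads over 18 livers), with Benjamini-Hochberg adjustment over 14533 genes. A gene was called at a fold over 2 and an adjusted p under 0.05, as in the study. The fit was tested on simulated data. CPM are the counts scaled to each library's TMM-adjusted total. limma 3.58.1 ran on log2(TPM + 0.1), and DESeq2 1.42.0 with lengths. Ratios of TPM were compared by an exact permutation test within time points (400 arrangements, two-sided). A floor of 3 reads corresponds to 0.0946 to 0.291 CPM, and covers counting error only.

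All 10 genes were described. Genes outside them were named from lists of iron genes and cell markers, for a call in at least 1 comparison or a known role in hepcidin control. The members and lists were chosen with earlier results of these data known. Removing the trend with gene length (a lowess of log2 counts on log2 length in each library, used as an offset) and the alternatives for single genes and pathway genes were added after seeing the data. Iron-responsive elements came from the GRCm39 annotation. Same-numbered mice at the 2 time points did not as a rule deviate together (correlations -0.253 to 0.46, the highest for WT mouse 3), so mouse numbers were not taken as pairs.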

Additional observations from a re-analysis of the deposited data

Results flagged for a closer look

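For 7 genes of the iron and heme lists, the difference between KOT and WT livers changed between the time points by a test of that change (edgeR interaction, 34 against 12 weeks, adjusted p between 0.0278 and 0.0481). The interaction was -1.14 for Hfe, -2.70 for Id1, -1.88 for Fbxl5, -0.779 for Ncoa4 and -1.98 for Uros, each lower at 34 weeks, and 2.38 for Il6ra and 2.38 for Alas1, each higher at 34 weeks. Study code differs between the time points as well. The 7 genes were flagged by adjusted p alone, which 19.6% of all genes passed in this test, or 18.4% with a fold over 2 as well. Whether 7 genes is more than that share would give was not tested. The Ncoa4 difference was also of opposite sign at the time points, 0.60 at 12 weeks and -0.177 at 34 weeks.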

How the results depend on the processing

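The check under other settings covered the counts of calls, the ratios and a chosen set of single-gene differences. Of 1735 such recomputed values, 1607 kept their direction and their side of the threshold (or stayed near the reported count), and 9 changed sign. Single-gene differences outside that set also changed sign, such as Hamp2 in KOT against WT at 12 weeks, in 5 of 18 refits without 1 mouse. With total counts, the number of the 10 iron genes called was 6 in KO against WT at 12 weeks (3 in the main test), 5 at 34 weeks (3), 7 in KOT against KO at 12 weeks (4), 6 at 34 weeks (3) and 2 between time points in KOT (0). By limma on TPM it was 6, 6, 7, 6 and 2 in these comparisons, 0 in KOT against WT at 12 weeks (1) and 1 between time points in KO (0). In KO at 34 weeks it was 5 with effective lengths as offsets in edgeR, 5 with upper-quartile factors and 6 with the length trend removed. In KOT at 12 weeks it was 2 by DESeq2, 0 with length offsets in edgeR and 2 with only the groups compared in the fit. Between time points it was 1 in KO by DESeq2 and 1 without the filter, and in KOT 1 by DESeq2, 1 with only the groups compared and 2 with the length trend removed, which also gave 1 call for the KOT interaction with time. By adjusted p alone it was 6 and 7 in KO at 12 and 34 weeks, 5 in KOT against KO at 34 weeks and 1 between time points in KOT. Over all genes, total counts moved the share of calls that were higher from 69.1% to 87.2% in KO at 12 weeks, from 56.6% to 81.8% at 34 weeks and from 53.1% to 24.4% in KOT at 12 weeks. Of the pathway genes in KOT at 12 weeks (17 called), 33 passed by adjusted p alone and 9 at an adjusted p under 0.01, and 46 passed by limma in KOT against KO at 12 weeks (30). The cause of these moves was not tested.

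Among the iron gene differences given in the text, those that changed sign under other settings were uncalled. They were Hamp in KO at 12 weeks with the length trend removed (-0.16), Tfr2 in KO at 12 weeks by limma (0.0056), Slc40a1 in KO at 12 weeks with total counts (0.11) or by limma (0.0074), and Slc40a1 in KOT at 12 weeks by limma (-0.055). Uncalled differences of pathway genes given in the text changed sign too. Examples in KO are Ncoa4 at 12 weeks (-0.3 to 0.325 over the other settings), Fbxl5 at 34 weeks (-0.716 to 0.309) and Alas1 at 34 weeks (-0.244 to 0.608). As each mouse was left out, Hamp in KO at 12 weeks ranged from -0.16 (without KO mouse 5) to 0.72, Hamp in KOT against WT at 34 weeks from -0.89 to 0.26 (without WT mouse 1), and Hamp2 in KO at 34 weeks from -0.83 to 0.67. The log2 Fth1 to Ftl1 ratio of KOT against WT ranged from -0.126 to 0.000278, and the Hamp2 share of KO against WT from 1.27 to 2.05, the last without KO mouse 5 at 34 weeks. Iron gene calls ranged from 3 to 6 in KO at 34 weeks (6 without WT mouse 2 or KO mouse 4), and from 0 to 1 between time points in KO and in KOT and for both interactions. Pathway genes called in KOT at 12 weeks ranged from 7 (without KOT mouse 10 or WT mouse 3) to 23. A leave-out never ended the calls of Fth1 or Slc11a1 in KO at both time points, Hamp2 in KO at 12 weeks or Tfr2 in KO at 34 weeks.

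With the mouse number as a replicate block, 0 iron genes were called between time points in WT, KO or KOT livers, as without the block, and the Hamp2 difference in KO was -3.34 (adjusted p = 0.607). Mouse numbers are shared by 3 WT, 1 KO and 2 KOT pairs, and of the WT mice only number 3 deviated together (correlation 0.46, against 0.0763 and -0.24), so the numbers are not taken as a pairing. With 3 mice per group, Hamp differences of -1.35 and 1.46 did not pass the main test, which does not show that Hamp was unchanged.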
